A study of Triticum aestivum with 21 samples.

Results

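The transcripts described here were those of wheat anthers whose level dipped during meiosis and stood above its starting point again later, in immature pollen or in mature anthers. They are 78 probe sets of the 61179 on the wheat GeneChip that are not controls. The level of a probe set is log2 of its intensity, and a stage mean is the mean of 3 arrays. A member had a pre-meiosis mean above 6, a telophase mean at least 0.8 below it, which is 1.74-fold, and a mean above pre-meiosis in immature pollen, in mature anthers or in both. The 15 meiotic transcripts that the study selected for separate analysis were set aside first. These values chose the members, so the levels in pre-meiosis, at the telophases, in immature pollen and in mature anthers are given as a description and were not tested.

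The anthers came from wild-type bread wheat (Triticum aestivum) cv. Chinese Spring, untreated, grown in a glasshouse at 23 °C by day and 15 °C by night with 14 h of light. The stages, in order, were anthers before meiosis (PM), those from leptotene through pachytene (LP), those from diplotene through the first anaphase (DA), and those in either telophase (TT). Then came tetrads (T), anthers with immature pollen (IP) and anthers at maturity (MAN). Each stage was 1 pool of at least 25 whole anthers, staged by squashing another anther of the same floret, and was hybridized to 3 arrays as technical replicates. Plants were thus not replicated, and each SD, SE and p-value reflects array-to-array spread within a pool. The number of arrays limits the precision. In such whole-tissue RNA, fewer cells of a type and less RNA per cell cannot be told apart.

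An anther holds meiocytes, which become microspores and then pollen, and the layers around them. The innermost layer, the tapetum, feeds the microspores, supplies material for the pollen wall and breaks down before the pollen is shed. Maturing pollen of flowering plants also lays down transcripts that serve in germination and growth of the pollen tube. RNA of whole anthers does not tell which of these cells a transcript came from. The array was designed from expressed sequence tags and does not separate the copies of a gene on the different genomes of hexaploid wheat.

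Marker genes were read beside the labels. The summed intensity of the meiotic genes ASY1, DMC1, PHS1 and MSH4 was 7014 to 7330 in PM, 5437 to 5891 in LP, 4008 to 4185 in DA, 2777 to 3626 in TT, 3157 to 3312 in T, 1950 to 2360 in IP and 393.8 to 440.1 in MAN, with 4 of 4 above a level of 5 in every stage. TT and T overlapped, and the other stages stood in the order of the labels. The 2 raftin genes, whose products are made in the tapetum and reach the microspore wall, summed to 6037 to 10980 in PM, 13160 to 17990 from LP to TT, 17390 to 20850 in T, 23190 to 31840 in IP and 506.4 to 805.3 in MAN. The 4 probe sets of the pollen list did not move together, and their sum lay between 13440 and 18680 in every stage. Of them the granule-bound starch synthase GBSS was above a level of 5 in MAN only (7.91), BMY1 was highest in IP (11.59) and at 7.29 in MAN, and the 2 profilin probe sets were above 9.9 in every stage. The 27 hybridization control probe sets averaged 8.69 on IP replicate 1, 11.08 to 11.30 in MAN and 9.90 to 10.64 elsewhere. The 42 poly-A control probe sets, added to the RNA before amplification, averaged 7.30 to 7.54 on the DA arrays. They averaged 6.77, 6.64 and 7.0 in LP and 6.37, 6.38 and 7.09 in T. The part of these cell types and controls in the results that follow was not tested.

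Of 26766 probe sets with a PM mean above 6, 460 dipped by at least 0.8 in TT, or 1.72%, and 78 of these 460 returned, or 17.0%. The other 382 dipped and stayed below PM in both IP and MAN. Return took place at different ends of pollen development. In 48 members MAN alone stood above PM, in 23 IP alone did, and in 7 both did. The members carry 74 different cluster numbers in their names, because 7 of them share 3 clusters (2 probe sets each of Ta.28779 and Ta.3259 and 3 of Ta.9369) and are not independent.

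The member with the lowest PM mean was Ta.11457.1.A1_at at 6.01, and Ta.28798.2.A1_s_at fell short of the level required at 5.97. The shallowest dip was that of TaAffx.106044.1.S1_s_at, with a TT minus PM difference of -0.802, while TaAffx.54483.1.S1_at was left out with -0.799. The least return was that of Ta.11382.1.A1_at, whose MAN mean was 0.025 above PM, and TaAffx.60976.1.S1_at missed with -0.008. The return ranged from 0.025 to 6.31 on the log2 scale. In MAN 40 members stood at least 2-fold and 9 at least 8-fold above PM, and in IP 18 and 6 did.

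**Figure D1:**
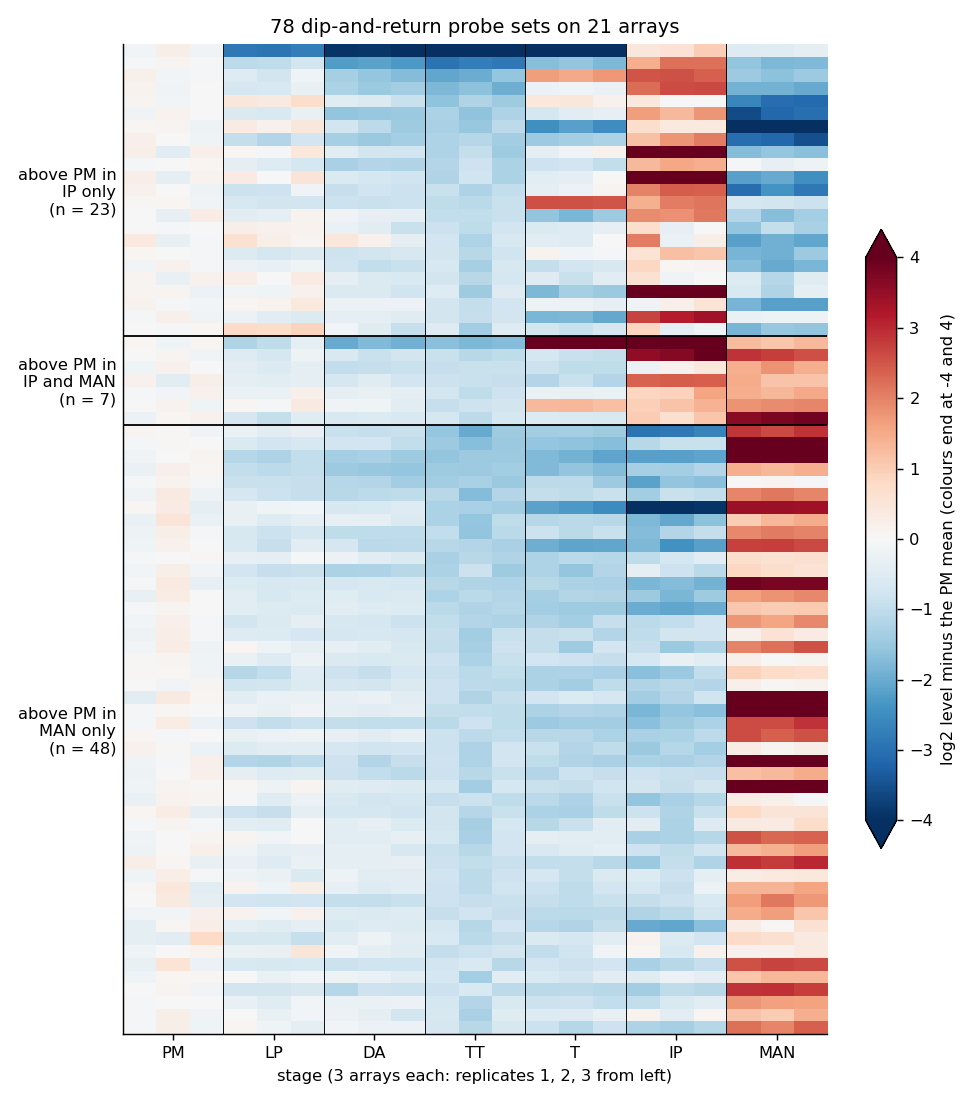
Level of each of the 78 members on each of the 21 arrays, as log2 level minus the PM mean of the same probe set (blue, below PM; red, above PM; colours end at -4 and 4). Rows are probe sets, grouped by the stage of return and ordered by depth of dip within a group (deepest at the top of each). Blocks were set by stage means, so single arrays of a member can differ from them. The means of the 23 members in the first block lie above PM in IP and below it in MAN. Those of the 48 in the last block lie above PM in MAN and below it in IP.

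The median level was below PM from LP on and was lower still in DA and TT. The rule asked for a high PM and a low TT mean, so it favoured steps down out of PM and into TT. The values and counts of this paragraph therefore describe the members and do not show where a decline began. The median difference from PM over the 78 members was -0.42 in LP, -0.65 in DA, -0.97 in TT, -0.95 in T, -0.73 in IP and 1.12 in MAN. Over all 61179 probe sets the same medians lay between -0.05 and 0.13. In 47 members the level stepped down in the order PM, LP, DA, TT without a break, and the steepest of the 3 steps led into LP in 29 members, into DA in 21 and into TT in 28. The name of a dip in meiosis fits the values only in part, since the lowest of the first 5 stages was TT in 37 members, T in 36 and DA in 5. In 73 of the 78 the T mean was still below PM.

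**Figure D2:**
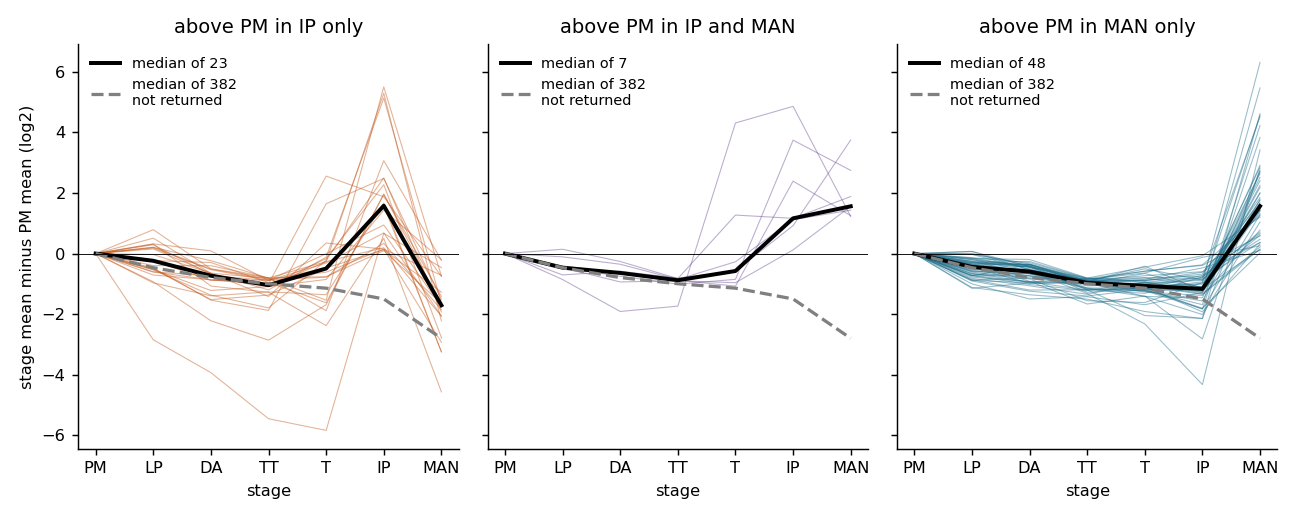
Stage mean minus PM mean (log2) over the 7 stages for the members that stood above PM in IP only (23), in IP and MAN (7) and in MAN only (48). Thin lines are probe sets, the black line is the group median, and the dashed grey line is the median of the 382 probe sets that dipped and did not return. The medians lie close to the dashed line up to TT, and then part from it in T and IP for the first 2 groups and in MAN for the third.

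The groups were made from the IP and MAN means, so that they differ there is by definition, and the medians only describe them. Members above PM in IP only had a median difference from PM of -1.04 in TT, -0.49 in T, 1.58 in IP and -1.71 in MAN. Their MAN mean was not above PM by definition. It lay at least 2-fold below PM in 17 of 23 and was the lowest of all 7 stages in 14. Members above PM in MAN only had medians of -0.97 in TT, -1.07 in T, -1.16 in IP and 1.57 in MAN. In 25 of these 48 the lowest of all 7 stages was IP, and in 29 IP lay at least 2-fold below PM. The 382 that did not return had medians of -1.0 in TT, -1.14 in T, -1.50 in IP and -2.80 in MAN.

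Single arrays had weight in the choice of members. Every TT array was below every PM array in 78 of 78 members, against 12.1% of all probe sets, an outcome that the gap asked for by the rule favoured. Between TT and PM arrays of the same number, the median difference was -0.90 in number 1, -1.27 in number 2 and -0.94 in number 3. Among the 3 TT arrays replicate 2 was the lowest in 50 members (64.1%). The share was 42.7% of all probe sets, 50.2% of those with a PM mean above 6 and 64.1% of the 382. Among the 3 PM arrays replicate 2 was the highest in 41 members (52.6%), against 35.6%, 44.9% and 58.1% in the same order. The members' shares were thus above those of the 2 wider sets. They were not above those of the 382, which met the same PM and TT thresholds. Without TT replicate 2 the rule gave 63 probe sets, 59 of them members, and without TT replicate 3 it gave 106, with 76 of them members. Members named in this text whose dip fell short of 0.8 without TT replicate 2 were TaAffx.92366.1.S1_at, Ta.4536.1.A1_at, Ta.4325.1.A1_at, TaAffx.106044.1.S1_s_at, Ta.28299.2.S1_at, TaAffx.53165.1.S1_at, TaAffx.77786.1.S1_at and TaAffx.106041.1.S1_at. When each replicate number was left out in turn, 42 of the 78 met the rule every time, namely 14 of the 23 IP only, 25 of the 48 MAN only and 3 of the 7.

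The arrays of a left-out number give values that the choice did not use. They measure the same pools again and were normalized with the other arrays, so they show repeatability between arrays only. With number 1, 2 or 3 left out, the other arrays chose 112, 73 and 112 probe sets. In the left-out arrays TT was below PM in 111 of 112, 68 of 73 and 108 of 112 of them, and IP or MAN was above PM in 111, 69 and 105. Of all probe sets with a PM mean above 6 on the other arrays, TT was below PM in 51.3%, 57.8% and 46.8%, and IP or MAN was above PM in 56.8%, 56.4% and 66.8%. The depth was not kept to the same degree, since TT was at least 0.8 below PM in 48 of 112, 46 of 73 and 42 of 112, against 1.83%, 6.97% and 1.97% of all those with a PM mean above 6. The median difference was -0.69, -1.02 and -0.66.

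The LP, DA and T arrays took no part in the rule, and the differences between these stages were tested over all 61179 probe sets. LP and DA lie between PM and TT, however, so asking for a fall from PM to TT also favours a fall from LP to DA. A low level in T, next to TT, is favoured too. An excess over all probe sets is thus not independent of the choice. The 382 that dipped without return met the same PM and TT thresholds, and their shares are given beside it. The test was limma, fitted to all 21 arrays, with Benjamini-Hochberg adjustment, and an adjusted p under 0.05 was a call. The members' SE of such a difference was 0.093 to 0.342, with a median of 0.141. The 3 comparisons share arrays with one another, so their counts are not independent.

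From LP into DA the members fell or showed no call. In limma 21 of 78 were lower in DA than in LP (26.9%), against 2.91% of all probe sets tested, 5.71% of those with a PM mean above 6 and 24.9% of the 382 that dipped without return. No member was higher in DA (1.64% of all and 3.09% of those with a PM mean above 6 were). The methods' t-test, adjusted alike, also gave 0. At an unadjusted p under 0.05 limma gave 0 and the methods' t-test 1. The median difference of the members was -0.25, beside 0.02 for all probe sets. The calls were 14 of 23 above PM in IP only (median -0.71), 5 of 48 in MAN only (median -0.17) and 2 of 7 in both. With array weights in limma they were 17, 16 and 4, and the share of all probe sets called rose as well, to 8.58%. The count in MAN only thus depended on this setting, as did that of the whole array. The difference between these groups was not tested. After adjustment the methods' t-test called only 3 members lower, where 0.358% of all were called, and limma called 3 where arrays were scaled to the hybridization controls (0.0458% of all, whose median moved to -0.147).

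From DA into T, on either side of the telophases, members moved both ways. In limma 28 of 78 were lower in T than in DA (35.9%), against 7.72% of all probe sets, 16.1% of those with a PM mean above 6 and 40.3% of the 382. A further 11 were higher in T (14.1%), against 4.87% of all, 7.72% of those with a PM mean above 6 and 4.19% of the 382. Of the 48 members above PM in MAN only, limma called 22 lower in T and 0 higher. With adjustment the methods' t-test called 0 of these 48 higher, and at an unadjusted p under 0.05 limma and the methods' t-test each gave 0. Of the 23 above PM in IP only, 9 were higher and 5 lower, with a median difference of 0.11. Whether the groups differ was not tested here either.

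The poly-A controls were brighter on every DA array than on any T array. With their level as a covariate 13 members were lower in T, where 2.11% of all were called, and 11 were higher (4.08% of all). Scaled to the hybridization controls, 3 were lower and 7 higher, where 0.0523% and 1.86% of all were called, and the median of all probe sets moved to 0.35.

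Across the whole gap between LP and T, 50 of 78 members were lower in T (64.1%), against 11.3% of all probe sets, 23.0% of those with a PM mean above 6 and 70.9% of the 382. Only 5 were higher in T (6.41%), against 5.92% of all, 9.13% of those with a PM mean above 6 and 3.14% of the 382. No excess is read from this count. The members' median difference was -0.54, beside -0.64 for the 382 and 0.02 for all. By group, 35 of 48 in MAN only, 12 of 23 in IP only and 3 of 7 in both were lower. Scaled to the hybridization controls, 8 were lower and 4 higher, where 0.226% and 1.51% of all were called. The median of all probe sets moved to 0.21 in that setting. Of the 78 members, 16 had no call in any of the 3 comparisons, 12 of them in MAN only. The share of all probe sets without a call was not counted.

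**Figure D3:**
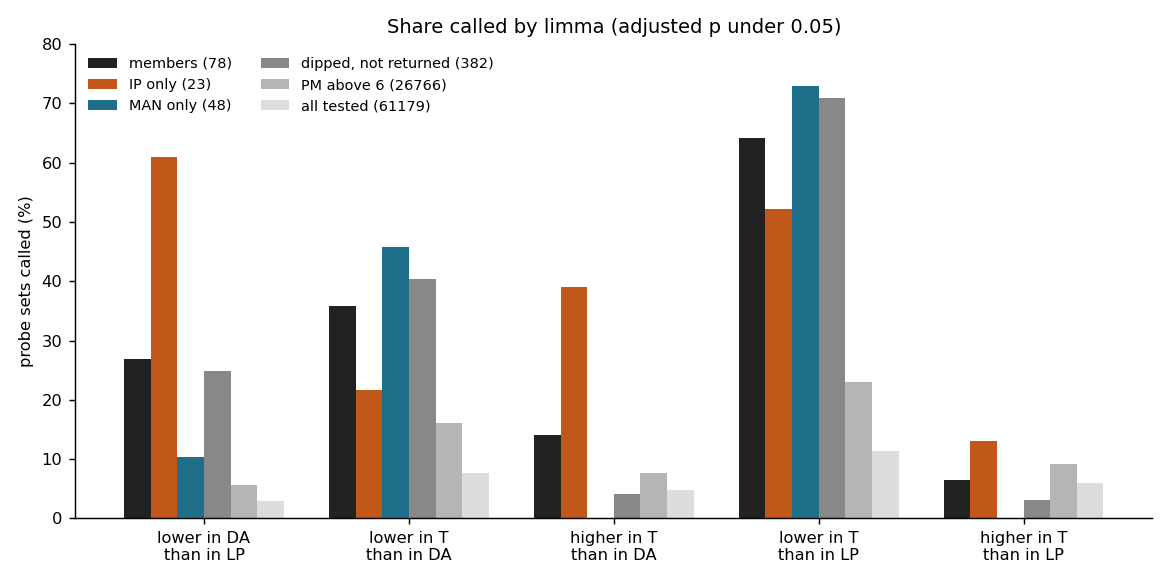
Share of probe sets called by limma (adjusted p under 0.05) in 5 comparisons, for the 78 members, for the members above PM in IP only (23) and in MAN only (48), for the 382 that dipped without return, for the 26766 with a PM mean above 6 and for all 61179 tested. The members resemble the 382 in the share lower in DA, in T against DA and in T against LP, and 39.1% of the IP only group were higher in T than in DA, against 0% of the MAN only group.

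**Figure D4:**
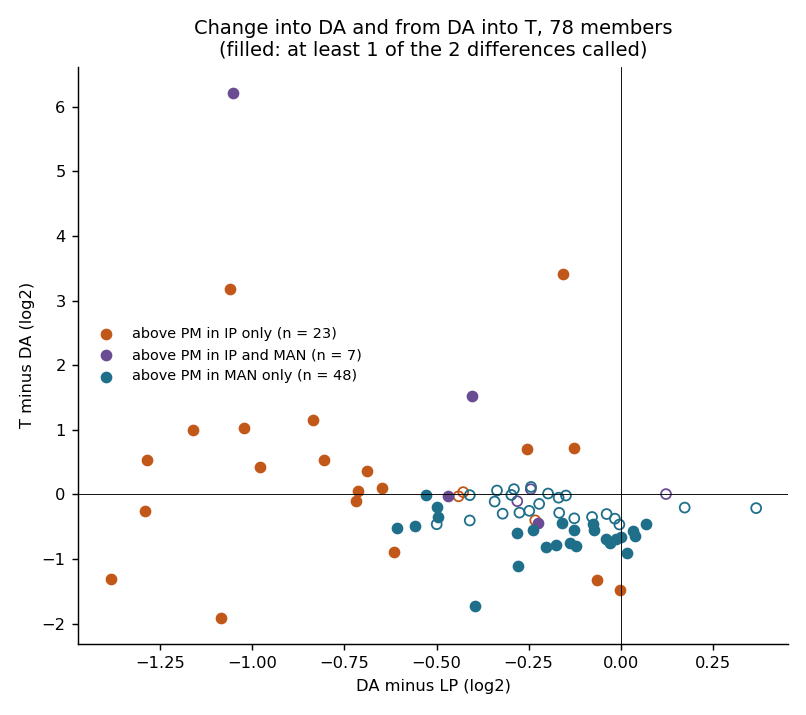
Difference between DA and LP (horizontal axis, log2) and between T and DA (vertical axis, log2) for the 78 members, coloured by the stage of return. Points are filled where at least 1 of the 2 differences was called by limma. Since both axes use the DA arrays they are not independent. Members above PM in MAN only lie between -0.61 and 0.37 on the horizontal axis, and those above PM in IP only reach down to -1.38 there and up to 3.42 on the vertical axis.

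Among members above PM in IP only, 6 were called lower in DA than in LP and then higher in T than in DA, so that of these 3 stages DA was the lowest. The share of all probe sets with both calls was not counted, so nothing about the group is read from this count. Ta.28779.1.S1_s_at was 1 of the 6. Its levels were 8.83, 8.54 and 8.55 in PM, 8.11, 7.92 and 8.46 in LP, 7.32, 7.10 and 6.89 in DA, and 6.55, 6.67 and 7.08 in TT. They were 10.30, 10.16 and 10.38 in T, 11.16, 11.18 and 11.02 in IP, and 7.20, 7.01 and 7.18 in MAN. The arrays of DA lay under all those of LP, and the arrays of T above all those of the first 4 stages. It fell by 1.06 from LP into DA (SE 0.145, limma, adjusted p = 5.8e-05) and was higher in T than in DA by 3.18 (SE 0.145, adjusted p = 6.3e-15 from limma).

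The second probe set of that cluster, Ta.28779.1.S1_x_at, also fell into DA and was higher in T, but by less, and its lowest stage was MAN. Its LP arrays were at 9.85, 9.91 and 10.23, and its means were 10.53 ± 0.13 in PM, 9.16 ± 0.11 in DA, 8.74 ± 0.16 in TT, 10.31 ± 0.06 in T, 13.03 ± 0.22 in IP and 8.61 ± 0.07 in MAN (SD, n = 3). It fell by 0.83 from LP into DA and was higher in T than in DA by 1.15 (adjusted p = 1.5e-04 and 1.8e-07 from limma), while T exceeded LP by 0.32 without a call (95% interval 0.06 to 0.57, unadjusted). The endings _s_at and _x_at mark probe sets with probes shared by several transcripts.

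Ta.6922.1.S1_at, one of the transcripts the study singled out, had its lowest point in TT. It measured 8.24, 8.41 and 8.27 in PM, 7.26, 7.29 and 7.59 in LP, 6.09, 6.18 and 6.01 in DA, and 5.36, 5.55 and 5.45 in TT. In T it measured 6.62, 6.75 and 6.50, in IP 9.77, 10.52 and 10.52, and in MAN 6.73, 6.52 and 6.56. No 2 neighbouring stages overlapped among its arrays from PM to IP. The TT mean lay 7.24-fold below PM and the IP mean 3.89-fold above it. It fell by 1.29 from LP into DA (SE 0.147, adjusted p = 5.9e-06 from limma), and was higher in T than in DA by 0.53 (adjusted p = 0.0162). That second call ended without T replicate 2, DA replicate 1 or DA replicate 3 (adjusted p = 0.0533 to 0.0877 from limma).

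Ta.8946.1.A1_at moved little from LP to TT and then stood highest in T. Its levels were 7.83, 7.87 and 7.64 in PM, 7.14, 7.04 and 7.04 in LP, 6.93, 6.89 and 6.93 in DA, and 6.76, 6.69 and 6.88 in TT. They were 10.37, 10.34 and 10.30 in T, 9.21, 9.84 and 9.91 in IP, and 7.11, 7.05 and 6.92 in MAN. It was the only member with its highest stage in T, above its IP arrays without overlap. The T mean exceeded DA by 3.42 (SE 0.132, adjusted p = 1.6e-16 from limma).

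The deepest dip of all 78 ran on into the tetrads. TaAffx.9800.1.S1_at, also singled out in the study, measured 12.35, 12.69 and 12.31 in PM, 9.60, 9.53 and 9.70 in LP, 8.53, 8.57 and 8.48 in DA, 7.12, 6.80 and 7.10 in TT, and 6.76, 6.45 and 6.65 in T. It then measured 12.91, 13.03 and 13.43 in IP and 11.93, 11.98 and 12.07 in MAN. The TT mean was 43.6-fold below PM, the IP mean was 1.59-fold above it, and MAN minus PM was -0.46, so that the level was high at both ends of development and low between. It fell by 1.08 from LP into DA, and fell by 1.90 from DA into T (SE 0.131, adjusted p = 1.3e-05 and 3.4e-11 from limma).

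Other members of the IP only group were lowest in T among the first 5 stages and above PM in the next. Ta.4536.1.A1_at had means of 10.86 ± 0.17 in PM, 10.47 ± 0.16 in LP, 10.46 ± 0.08 in DA, 10.06 ± 0.11 in TT, 8.98 ± 0.14 in T, 13.93 ± 0.34 in IP and 10.64 ± 0.04 in MAN (SD, n = 3). Its T arrays (9.04, 9.07 and 8.82) were far under those of DA (10.52, 10.49 and 10.38), a difference of -1.48 (adjusted p = 7.5e-09 from limma), while DA against LP was no call. TaAffx.92366.1.S1_at had the highest IP level relative to PM, 45.3-fold. It measured 7.34, 7.33 and 6.98 in PM, 7.12, 7.05 and 7.40 in LP, 6.63, 6.65 and 6.43 in DA, 6.70, 5.80 and 6.69 in TT, and 5.42, 5.89 and 5.73 in T. In IP it measured 12.61, 12.76 and 12.79, and in MAN 6.60, 6.0 and 6.84. Its dip to TT was shallow (-0.82) and fell short of 0.8 without TT replicate 2. The level fell by 0.89 from DA into T (SE 0.2, adjusted p = 0.00284 from limma).

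The pair of probe sets of cluster Ta.3259 changed little from PM to LP and peaked in IP. Ta.3259.1.S1_x_at measured 9.20, 8.57 and 9.09 in PM, 9.28, 8.98 and 9.47 in LP, 8.36, 8.26 and 8.17 in DA, 7.75, 8.16 and 7.69 in TT, and 8.53, 8.55 and 8.97 in T. It measured 13.91, 14.37 and 14.45 in IP, 39.1-fold above PM, and 6.77, 6.94 and 6.50 in MAN. LP and PM overlapped, and it fell by 0.98 from LP into DA (SE 0.177, adjusted p = 0.00115 from limma). It fell by 0.56 from LP into T (adjusted p = 0.0281), a call that ended without T replicate 1 or 2 or LP replicate 1 or 3 (adjusted p = 0.0833 to 0.158). Ta.3259.1.S1_at, at 9.05 ± 0.38 in PM, 9.21 ± 0.25 in LP, 8.40 ± 0.16 in DA, 7.86 ± 0.24 in TT, 8.93 ± 0.28 in T, 14.18 ± 0.39 in IP and 7.41 ± 0.10 in MAN (SD, n = 3), fell by 0.80 from LP into DA (adjusted p = 0.0119 from limma). Without DA replicate 2 or 3 or LP replicate 3 this was past no threshold (adjusted p = 0.0606 to 0.0985).

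Ta.11633.1.S1_at was highest in LP among the first 5 stages and below a level of 5 in MAN. Its means were 7.97 ± 0.16 in PM, 8.29 ± 0.14 in LP, 6.90 ± 0.33 in DA, 6.69 ± 0.24 in TT, 5.60 ± 0.17 in T, 8.47 ± 0.19 in IP and 3.41 ± 0.09 in MAN (SD, n = 3). A mean below 5 was taken as not expressed, so that the difference between MAN and PM of -4.56 is a lower bound on the loss. It fell by 1.38 from LP into DA and by 1.31 from DA into T (SE 0.15, adjusted p = 2.6e-06 and 5.1e-07 from limma), the largest fall into DA of any member.

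IP replicate 1, the array with weak hybridization controls, decided the return of 4 members of the IP only group. TaAffx.106044.1.S1_s_at measured 7.53 on that array and 6.27 and 6.50 on the other IP arrays, against 6.66, 6.59 and 6.75 in PM. Its means in the other stages were 7.46 ± 0.08 in LP, 6.17 ± 0.40 in DA, 5.87 ± 0.51 in TT, 5.91 ± 0.11 in T and 5.02 ± 0.18 in MAN (SD, n = 3), and the level fell by 1.29 from LP into DA (SE 0.24, adjusted p = 0.00156 from limma). Ta.28299.2.S1_at measured 8.75 on IP replicate 1 and 6.44 and 6.94 on the others, against 7.09, 6.39 and 6.60 in PM. Its other IP arrays thus lay within the range of PM. Ta.9665.2.S1_at measured 7.17 on that array and 6.15 and 6.48 on the others, against 6.50, 6.44 and 6.48 in PM. TaAffx.53165.1.S1_at measured 7.65 on that array and 6.90 and 7.03 on the others, against 7.17, 6.75 and 7.22 in PM. Without it the rule gave 76 probe sets, 74 of them members.

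The 7 members above PM in both IP and MAN included the widest change between tested stages. Ta.11515.1.S1_a_at measured 8.12, 7.90 and 8.16 in PM, 6.85, 7.05 and 7.71 in LP, 6.03, 6.28 and 6.13 in DA, and 6.39, 6.25 and 6.33 in TT. It measured 12.39, 12.42 and 12.29 in T, 12.47, 13.10 and 13.18 in IP, and 9.34, 9.16 and 9.35 in MAN. Its lowest stage was DA, and its T arrays were all above 12. The T mean was higher than DA by 6.22 (SE 0.171, adjusted p = 1.1e-19 from limma) and higher than LP by 5.16. It fell by 1.05 from LP into DA (adjusted p = 4.0e-04). The ending _a_at marks a probe set that reads several transcripts of 1 gene.

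Ta.20981.1.S1_at, of the same group, stayed low through T. Its means were 7.90 ± 0.12 in PM, 7.43 ± 0.23 in LP, 7.15 ± 0.14 in DA, 6.89 ± 0.11 in TT, 7.05 ± 0.12 in T, 11.64 ± 0.24 in IP and 10.64 ± 0.15 in MAN (SD, n = 3). It fell by 0.38 from LP into T (adjusted p = 0.0445 from limma), and the call ended without T replicate 2 or 3 or LP replicate 1 or 3 (adjusted p = 0.0806 to 0.285). T was thus on the high side of PM for the first of these members and on the low side for the second.

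**Figure D5:**
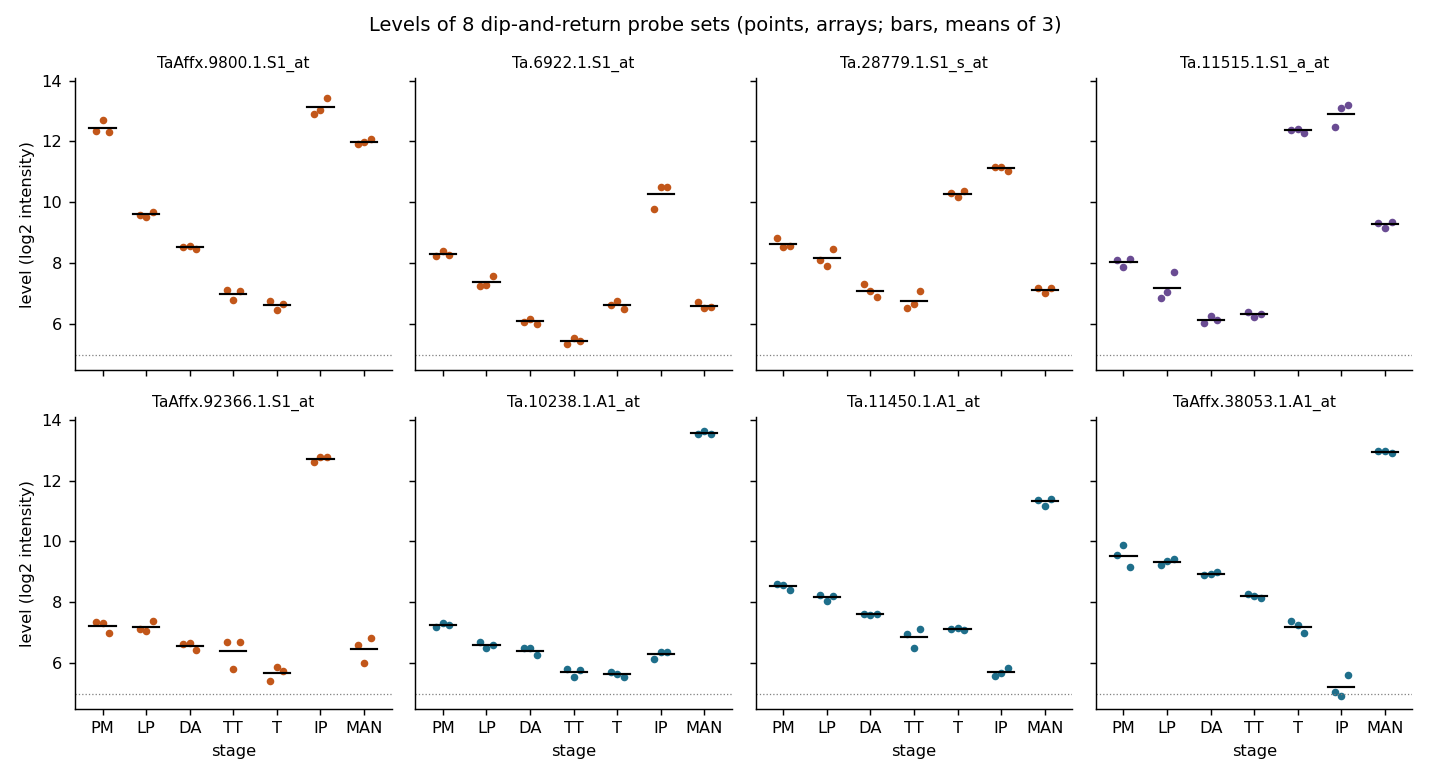
Level (log2 intensity) of 8 members on the 3 arrays of each stage (points) with the stage mean (bars), coloured orange where IP alone stood above PM, purple where IP and MAN did and blue where MAN alone did. The dotted line marks a level of 5. TaAffx.9800.1.S1_at is low in TT and T and high at both ends, Ta.11515.1.S1_a_at is already at 12.37 in T, and Ta.10238.1.A1_at reaches 13.56 in MAN.

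Among the 48 members above PM in MAN only, 33 were at least 2-fold and 8 at least 8-fold above PM in mature anthers. Ta.10238.1.A1_at had the widest gap. It measured 7.19, 7.31 and 7.26 in PM, 6.69, 6.49 and 6.60 in LP, 6.49, 6.49 and 6.28 in DA, 5.80, 5.55 and 5.76 in TT, and 5.72, 5.65 and 5.56 in T. It measured 6.13, 6.38 and 6.38 in IP and 13.53, 13.63 and 13.52 in MAN, 79.1-fold above PM. It fell by 0.78 from DA into T (SE 0.106, adjusted p = 7.6e-06 from limma), and DA and LP differed by -0.18 without a call (95% interval -0.40 to 0.04, unadjusted).

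TaAffx.38053.1.A1_at had a lower mean at each stage up to IP than at the one before. Its levels were 9.56, 9.87 and 9.15 in PM, 9.23, 9.35 and 9.41 in LP, 8.89, 8.92 and 9.0 in DA, 8.26, 8.22 and 8.15 in TT, 7.37, 7.24 and 7.01 in T, and 5.07, 4.94 and 5.61 in IP. In MAN they were 12.97, 12.96 and 12.90. From LP on, the arrays of successive stages did not overlap. The IP mean of 5.21 differed from PM by -4.32, and MAN was 10.7-fold above PM. Between the tested stages it fell by 1.73 from DA into T (SE 0.154, adjusted p = 5.3e-09 from limma), and DA against LP (-0.40) was no call.

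Ta.11450.1.A1_at fell in both tested steps, although its T mean was not below that of TT. It measured 8.62, 8.56 and 8.39 in PM, 8.25, 8.06 and 8.20 in LP, 7.62, 7.59 and 7.62 in DA, 6.97, 6.49 and 7.11 in TT, 7.12, 7.16 and 7.09 in T, 5.59, 5.67 and 5.85 in IP, and 11.38, 11.17 and 11.41 in MAN. It fell by 0.56 from LP into DA and fell by 0.49 from DA into T (SE 0.126, adjusted p = 0.00869 and 0.00932 from limma). The difference between DA and LP was past no threshold without LP replicate 1 (adjusted p = 0.0533).

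Ta.25708.1.A1_at and Ta.11457.1.A1_at had their lower level from LP on. The means of Ta.25708.1.A1_at were 6.37 ± 0.17 in PM, 5.23 ± 0.08 in LP, 5.4 ± 0.17 in DA, 5.42 ± 0.26 in TT, 5.20 ± 0.15 in T, 5.13 ± 0.06 in IP and 11.83 ± 0.12 in MAN (SD, n = 3). None of its differences between LP, DA and T was called. Ta.11457.1.A1_at had means of 6.01 ± 0.12 in PM, 4.89 ± 0.13 in LP, 4.65 ± 0.05 in DA, 4.51 ± 0.07 in TT, 4.10 ± 0.18 in T, 3.87 ± 0.04 in IP and 10.63 ± 0.20 in MAN (SD, n = 3). Being below 5 from LP to IP, it counts as not expressed there, and its calls between those stages are not read as changes. In all, 6 members had a stage mean below 5.

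Ta.4325.1.A1_at and Ta.3723.1.S1_at stood 22.8-fold and 23.6-fold above PM in MAN, in that order. Ta.4325.1.A1_at had means of 7.33 ± 0.16 in PM, 7.30 ± 0.16 in LP, 6.81 ± 0.06 in DA, 6.39 ± 0.40 in TT, 6.45 ± 0.08 in T, 6.53 ± 0.11 in IP and 11.84 ± 0.01 in MAN (SD, n = 3). It fell by 0.85 from LP into T (adjusted p = 7.3e-05 from limma), and its call between DA and LP (-0.50, adjusted p = 0.0405) ended without any 1 of the DA arrays or LP replicate 1 or 3 (adjusted p = 0.0816 to 0.195). Ta.3723.1.S1_at, annotated only as LOC543262, was at 8.35 ± 0.42 in PM, 8.03 ± 0.10 in LP, 7.99 ± 0.09 in DA, 7.36 ± 0.21 in TT, 7.69 ± 0.11 in T, 7.22 ± 0.29 in IP and 12.91 ± 0.02 in MAN (SD, n = 3). It had no call in the tested comparisons.

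The smallest return among the 48 was that of Ta.11382.1.A1_at, at 7.45, 7.54 and 7.35 in MAN against 7.34, 7.56 and 7.37 in PM, which overlap. Between these stages it was at 6.52 ± 0.01 in LP, 6.18 ± 0.14 in DA, 6.02 ± 0.10 in TT, 6.24 ± 0.23 in T and 5.62 ± 0.30 in IP (SD, n = 3).

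Only 1 of the 78 has a gene name in the platform's annotation. TaAffx.106041.1.S1_at is given as FBP, fructose bisphosphatase, an enzyme of carbon fixation and sucrose synthesis. Its levels were 8.04, 7.94 and 9.21 in PM, 7.76, 7.75 and 7.48 in LP, 7.95, 8.21 and 7.94 in DA, 7.78, 7.31 and 7.48 in TT, 7.81, 7.72 and 7.94 in T, 8.54, 7.85 and 7.64 in IP, and 9.15, 9.04 and 8.75 in MAN. PM replicate 3 stood above the other PM arrays by more than 1, and without it TT minus PM was -0.47 and the rule was not met. None of the comparisons between LP, DA and T was called. The other FBP probe set, Ta.439.1.S1_at, took the opposite course, with 6.98 ± 0.20 in PM, 7.92 ± 0.21 in TT, 9.01 ± 0.06 in IP and 6.12 ± 0.33 in MAN (SD, n = 3).

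Another 4 members have a symbol without a name. LOC543368 (Ta.639.1.S1_at) was at 8.58 ± 0.06 in PM, 8.32 ± 0.18 in LP, 8.18 ± 0.17 in DA, 7.38 ± 0.10 in TT, 7.42 ± 0.08 in T, 7.87 ± 0.29 in IP and 9.24 ± 0.05 in MAN (SD, n = 3), and fell by 0.76 from DA into T (adjusted p = 1.2e-04 from limma). LOC780662 (TaAffx.77786.1.S1_at) fell by 0.65 from LP into DA (adjusted p = 0.0275 from limma), with 6.46 ± 0.16 in PM, 5.59 ± 0.39 in TT and 6.80 ± 0.43 in IP (SD, n = 3). LOC100049047 is Ta.28299.2.S1_at, described with IP replicate 1, and LOC543262 is Ta.3723.1.S1_at. Apart from LOC543262, which is also among the 5 highest in MAN relative to PM, they were picked for their annotation after their values were known. Over the whole array 1273 probe sets carry a symbol.

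The members were set against gene lists of the anther's known programmes. Members are 0.127% of all probe sets tested and 0.291% of those with a PM mean above 6, so lists this short would hold about 0 at that share, and nothing is read from their counts. Of 18 probe sets of histones H2A and H2B, which package new DNA, 0 were members and 3 dipped without return, and of 10 tubulin probe sets 0 were members and 1 dipped without return. The 4 raftin, 3 ribosomal protein, 4 translation factor, 3 starch and sucrose, 10 dehydration, 13 seed storage, 4 gibberellin oxidase, 2 profilin and 1 heat shock probe sets held 0 members. Of 5 photosynthesis probe sets 1 was a member, the FBP probe set already described.

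Other probe sets of the members' clusters allow a look at the same or closely related transcripts. The files hold 39 such probe sets in 23 clusters, and 20 of them had a PM mean above 6. In 20 of these 20 the TT mean lay below PM (median -0.46, range -1.25 to -0.19), as it did in 54.1% of all probe sets with a PM mean above 6. Only 2 of them dipped by 0.8. Neither returned, which the rule fixed in advance, since a probe set that did so would be a member. Ta.10238.2.S1_at, too dim in PM for the rule at 4.77, stood 6.76 above PM in MAN, beside 6.31 for the member Ta.10238.1.A1_at. That PM level is below 5 and counts as not expressed. Ta.11515.2.S1_at, at 5.37 in PM, stood 3.45 above PM in IP, beside 4.86 for Ta.11515.1.S1_a_at. Others went against their member. MAN minus PM was -3.11 for Ta.4966.1.A1_at, beside 1.28 for the member Ta.4966.2.S1_s_at. IP minus PM was -0.33 for Ta.11633.2.A1_at, beside 0.50 for the member Ta.11633.1.S1_at. How many shared the return of their member was not counted. Probe sets of a cluster can share sequence, so they are no independent measurements.

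The names of the probe sets say how they were designed. Of the 78 members 28 carry A1 or A2 in their name (35.9%), against 32.2% of the 382 that dipped without return, 22.6% of probe sets with a PM mean above 6 and 17.4% of all. Endings that mark shared probes (_s_at, _x_at and _a_at) were found in 14 members (17.9%), against 24.6% of the 382, 30.5% of probe sets with a PM mean above 6 and 20.8% of all. These shares were not tested, and what A1 and A2 stand for is not given in the sources used here.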

How the data were processed

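The deposited table gives, per the labels, RMA values, which the authors made by correcting the background, normalizing between arrays and summarising the probes of each set (no RMA version is given in the sources used here). The deposited table holds linear intensities for 61290 probe sets on 21 arrays. Here log2 was taken, and tests ran on 61179 probe sets, without the 111 controls. Rogue probe sets that the study discarded carry no mark in the table, so they stayed in. RMA normalizes the spiked controls with the anther RNA, so their levels can depend on it too.

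Stages were compared with limma 3.58.1 (R 4.3.3) in 1 model over all arrays (14 residual and 10.64 prior degrees of freedom) with Benjamini-Hochberg adjustment over all tested probe sets. Tables used pandas 2.3.3 and scipy 1.17.1 with numpy 2.4.6 in Python 3.11.15, and figures matplotlib 3.10.9. The limma step was tested on simulated data with independent noise and no array-wide shift. That test does not bear on shifts of whole arrays. The authors' own test, Student's with equal variances and Benjamini-Hochberg adjustment, is called the methods' t-test and was run as an alternative with the other settings of the closing section. The paper's Acuity results were not used.

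The members and gene lists were chosen with earlier results of these data known. Named members were the 1 with a named gene, the 6 deepest dips, the 5 highest in IP and the 5 highest in MAN relative to PM, up to 3 called members with the highest and lowest difference in each tested comparison whose arrays do not overlap, those the paper names, and those nearest each threshold. The others named were chosen after their values were seen. Intervals of a difference are limma's 95% intervals.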

Additional observations from a re-analysis of the deposited data

How the results depend on the processing

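The number of members depended on the depth asked for: 224 with TT at least 0.6 below PM and 33 with at least 1, and 51 with arrays scaled to the 27 hybridization controls, 38 of them members. It was 73 to 112 with 1 replicate number left out. That scaling raised the median SE of the members from 0.141 to 0.337. It gave 8 lower in T than in LP (0.226% of all probe sets) and 3 lower in DA than in LP (0.0458%). Between T and DA it gave 3 lower and 7 higher in T (0.0523% and 1.86%). With calls of at least 2-fold these counts were 11, 8, 6 and 7 (0.914%, 0.196%, 0.283% and 1.2% of all). The methods' t-test gave 3 lower in DA than in LP (0.358% of all) and array weights gave 37 (8.58%). The poly-A covariate gave 13 lower in T than in DA (2.11%). Without the endings _s_at, _x_at and _a_at, 3 were higher in T than in LP and 7 higher in T than in DA (5.19% and 4.0% of the 48453 left). With 1 array of the stages compared left out the counts were 40 to 47 lower and 5 to 7 higher in T than in LP, 14 to 19 lower and 0 to 0 higher in DA than in LP, and 22 to 28 lower and 9 to 11 higher in T than in DA. Without IP replicate 1 they were 54 and 6, 23 and 0, and 30 and 12. The shares of all were then 12.8% and 6.85%, 3.78% and 2.13%, and 8.93% and 5.59%. The 14 came without DA replicate 3 and without LP replicate 1. The cause of these shifts was not tested. With the replicate number as a block all 6 counts were as before (50, 5, 21, 0, 28 and 11), and the numbers were not taken to pair the arrays, since deviations of same-numbered arrays correlated at -0.388 to 0.392 and only 10 of 63 correlations were over 0.1, the 3 between LP and IP among them. Of 40 called differences of named members, 0 changed sign in any setting, and 73 of 668 repeats were past no threshold, 21 of them under the scaling to the hybridization controls and 0 under the block. The rule without IP replicate 1 was added after the data were seen. The triplicates came from 1 pool, so no value here has a check between plants.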
